A study of Mus musculus with 8 samples.

Results

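Insl3 and Jak3 are 2 mouse genes whose transcripts end in the same exon on chromosome 8. Both were measured here by Nanopore direct RNA sequencing, which reads each poly(A) RNA molecule from its 3′ end and allows the length of its poly(A) tail to be estimated from the electrical signal. The members were taken by symbol: the tail table held 1 transcript named insl3 (ENSMUST00000034261) and 1 named jak3 (ENSMUST00000051995), out of 2243 gene symbols and 2783 transcripts in all. Together they had 10464 reads over 8 libraries, each read with a tail length in nucleotides (nt).

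Insl3 encodes a small peptide hormone of the relaxin family, secreted by the steroid-producing Leydig cells between the seminiferous tubules. It acts on the receptor RXFP2 and is needed for the descent of the testis. Insl3 mRNA is also found in spermatids. Jak3 encodes a tyrosine kinase that works with the common gamma chain (Il2rg) of cytokine receptors in lymphoid cells. Tent5c encodes a cytoplasmic poly(A) polymerase, an enzyme that adds adenosines to the tails of finished mRNAs. Long tails bind poly(A)-binding protein and generally go with stable, translated mRNAs.

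The RNA came from whole testes of adult male mice that carried Tent5c wt/wt (wt) or Tent5c dcat/dcat (dcat), an allele whose protein lacks catalytic activity, in both copies and in every cell of the animal. A single injection of busulfan at 20 mg/kg, an alkylating drug that depletes dividing germ cells, or of vehicle was given 4 weeks before the testes were taken. The 4 groups were wt vehicle, dcat vehicle, wt busulfan and dcat busulfan, with 2 mice and so 2 libraries each. Replicate 1 of every group was sequenced in one multiplexed run and replicate 2 in the other. Libraries held 29574 to 129074 reads of the transcripts that passed the authors' filter on read number. Both of these extremes were dcat vehicle libraries. The paper lists more reads for every library, counted after its quality check but before that filter. All reads of a library means here the reads of the transcripts that passed, and shares of all reads are taken of these. Replicate counts of a group differed by more than sampling noise, with a chi-square per degree of freedom of 1.29 to 2.58. Tent5c itself still had 18 to 115 reads in every library, since the dcat allele is transcribed, so its reads did not check the genotype labels.

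On the genome build GRCm38, the Jak3 transcript ran from 71676296 to 71690575 on the plus strand of chromosome 8, in 25 exons with 4019 bases. The Insl3 transcript ran from 71689214 to 71690575 on the same strand, in 2 exons with 623 bases. Exon 1 of Insl3 (71689214 to 71689432) lay inside the last intron of Jak3, and exon 2 of Insl3 had the same start and end as exon 25 of Jak3 (71690172 to 71690575, 404 bases). For Jak3 that exon was 3′ UTR throughout, because its stop codon was in exon 24. For Insl3 its first 194 bases were coding, stop codon included, and the other 210 were 3′ UTR. The shared exon made up 64.9% of the Insl3 transcript and 10.1% of the Jak3 transcript.

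**Figure D1:**
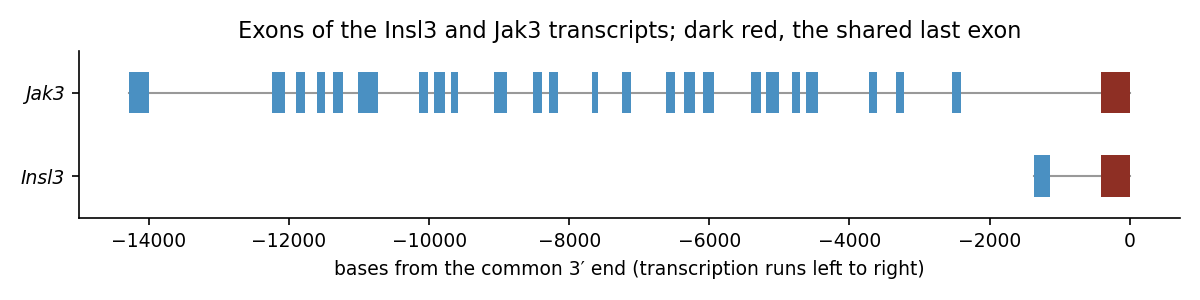
Exons of the Jak3 and Insl3 transcripts as boxes, drawn to scale against the distance in bases from their common 3′ end, with introns as lines. The dark red box is the last exon of 404 bases, which both transcripts share, and exon 1 of Insl3 falls between exons 24 and 25 of Jak3.

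The sequences on both sides of the last splice junction are shown because only bases before the junction tell the transcripts apart. The first 2 lines give the last 15 bases of the preceding exon in lower case (71689418 to 71689432 for Insl3 and 71688148 to 71688162 for Jak3) and, in capitals, the first 15 bases of the shared exon (71690172 to 71690186). The third line gives the last 30 bases of both transcripts (71690546 to 71690575), with the hexamer AATAAA in capitals.
Insl3 junction: tggagacccgggaccGGGAGCTGCTGCAGT
Jak3 junction: cagccaggggcgagaGGGAGCTGCTGCAGT
common 3 prime end: ccaaaaagtctaAATAAAaaagcaacttca
The sequences are those of the GRCm38 reference. A read from the common end therefore had to run through 404 bases, and over the junction, before it met a base of one transcript only. The files hold no read lengths, so how many reads got that far was not tested. Reads listed as Jak3 may therefore include Insl3 molecules, and every Jak3 count and tail given here carries that limit. No read name was listed under both genes. AATAAA, the usual poly(A) signal, began 18 bases before the end, and 55.6% of the 2738 transcripts with a sequence held it (plus strand of the RNA) in their last 30 bases. This match describes the sequence only.

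Insl3 was abundant in every library and most abundant in wt testes after busulfan. It took 206 and 302 reads in the wt vehicle libraries (0.406% and 0.419% of all reads), 141 and 277 in dcat vehicle (0.477% and 0.215%), 2082 and 4197 in wt busulfan (3.15% and 3.64%), and 930 and 1329 in dcat busulfan (1.51% and 1.37%). Both wt busulfan libraries lay above both dcat busulfan libraries, and all busulfan libraries lay above all vehicle libraries, while the vehicle groups overlapped. By its number of reads Insl3 ranked 2 of 2783 transcripts in both wt busulfan libraries and 5 in both dcat busulfan libraries. In the vehicle libraries it ranked 14 in 3 of 4, and 35 in dcat vehicle replicate 2.

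Jak3 was read far less often, with the same group highest. The wt vehicle libraries held 35 and 44 Jak3 reads, the dcat vehicle libraries 17 and 37, the wt busulfan libraries 269 and 352, and the dcat busulfan libraries 121 and 125. As shares of all reads these were 0.0690% and 0.0610%, 0.0575% and 0.0287%, 0.407% and 0.305%, and 0.197% and 0.129%. The wt busulfan libraries were again above the dcat busulfan libraries. Both dcat vehicle libraries were below both wt vehicle libraries, replicate 1 only slightly.

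**Figure D2:**
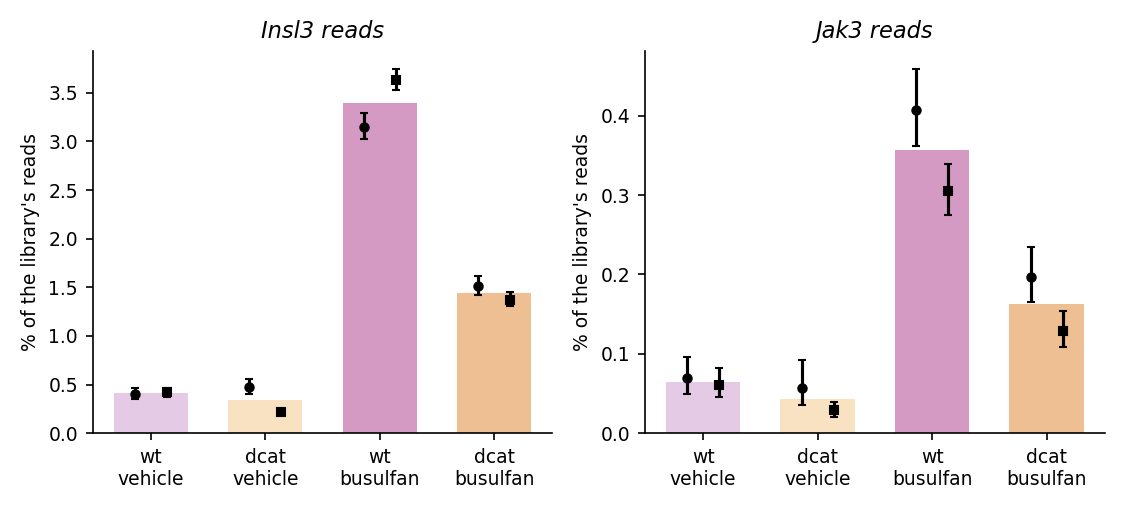
Share of each library's reads assigned to Insl3 (left) and Jak3 (right), in percent. Bars are means of 2 libraries, circles and squares are replicates 1 and 2, and error bars are Wilson 95% intervals, which cover counting error only. Both genes are highest in wt busulfan, at 3.15% and 3.64% of reads for Insl3.

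Whether loss of TENT5C activity changed how much Insl3 and Jak3 RNA remained was asked by comparing dcat with wt within each treatment. After busulfan, Insl3 fell from 33381 ± 8673 to 14688 ± 346 TMM-scaled counts per 1000000 (CPM; SD, n = 2 libraries per group), or by 1.18 on the log2 scale (SE 0.32, edgeR adjusted p = 0.0299). Within the multiplexed runs the share of reads was 2.08 times lower in dcat for replicate 1 and 2.65 times lower for replicate 2. Among all 2783 transcripts 5.82% passed the threshold in this comparison, and 0.431% of all transcripts were called lower in dcat. Insl3 ranked 50 from the most negative fold change. Leaving out any 1 of the 4 libraries gave -1.43 to -0.89 with adjusted p from 0.0595 to 0.367, so the call needed all 4.

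Jak3 had 3417 ± 146 CPM in wt busulfan and 1651 ± 413 CPM in dcat busulfan (SD, n = 2), which is -1.06 on the log2 scale (SE 0.33, edgeR adjusted p = 0.0549), just over the threshold. With the multiplexed run as a replicate block it was -1.08 and passed (adjusted p = 0.0311). It also passed with RLE scaling (-1.21, adjusted p = 0.0220) and without dcat busulfan replicate 1 (-1.33, adjusted p = 0.0183). Over all transcripts the median was 0.20 on the log2 scale with TMM and 0.06 with RLE scaling, which is the level that both values stand against. After vehicle, dcat differed from wt on the log2 scale by -0.30 for Insl3 (SE 0.33, edgeR adjusted p = 1.0) and -0.75 for Jak3 (SE 0.40, adjusted p = 1.0). None of the 2783 transcripts was called there by edgeR or by DESeq2 (0%), and 65 had an unadjusted p under 0.05 by edgeR. Insl3 went the other way (0.20) without dcat vehicle replicate 2.

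Busulfan raised the reads of both genes in both genotypes. Insl3 rose by 3.01 (SE 0.35, edgeR adjusted p = 2.28e-07) on the log2 scale in wt and by 2.12 (SE 0.34, adjusted p = 6.11e-05) in dcat testes. Jak3 rose by 2.39 (SE 0.36, adjusted p = 4.36e-06) and 2.08 (SE 0.39, adjusted p = 2.08e-04). Busulfan called 73.8% of all transcripts in wt and 62.7% in dcat testes, with 35.4% and 31.3% higher, so that a rise alone did not set the genes apart. In such bulk samples fewer cells of a type and less RNA per cell cannot be told apart. The difference between these rises was not called, at -0.88 for Insl3 (SE 0.46, adjusted p = 0.361) and -0.31 for Jak3 (SE 0.52, adjusted p = 0.876), against 0.323% of transcripts called. Without dcat vehicle replicate 2, the library with the lowest Insl3 share, the Insl3 difference was -1.50 and passed (adjusted p = 0.0206).

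Markers of Leydig and other cells were set beside these counts. The summed reads of 7 other Leydig genes (Cyp11a1, Cyp17a1, Fdx1, Hsd17b3, Hsd3b1, Hsd3b6 and Star, which make or feed the steroid pathway) came to 8539 and 8828 reads per 1000000 reads of the library (RPM) in wt busulfan and 9125 and 6856 RPM in dcat busulfan libraries, and the groups overlapped. For each read of these 7 genes there were 3.69 and 4.12 reads of Insl3 after busulfan in wt but only 1.66 and 2.01 after busulfan in dcat. The ratio after vehicle was 3.61 and 3.68 in wt and 3.28 and 1.57 in dcat libraries. Per read of these genes the Insl3 difference after busulfan was -1.09 on the log2 scale, against -1.18 with TMM scaling over all transcripts, the first being a scaling chosen after the data were seen.

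Some germ cell markers were higher and the erythroid markers lower in dcat than in wt after busulfan. Of 9 late spermatid markers 5 were called higher by edgeR (Prm1, Prm2, Tnp1, Tnp2, which package sperm DNA, and Gapdhs, a sperm glycolytic enzyme, at 2.599 to 2.806 on the log2 scale) and 0 lower. Akap4 (1.87), Odf1 (-0.97), Smcp (-0.29) and Oaz3 (-0.30) did not pass. Of the listed markers, 1 of 4 of round spermatids (Ldhc, 2.23) and 1 of 3 of spermatocytes were called higher. Both erythroid ones were called lower, and 0 of 6 Sertoli and 0 of 3 macrophage ones were called. Over all 2783 transcripts 150 were called higher and 12 lower, so 0 calls among so few markers is near that share. The 3 of 7 listed spermatocyte markers summed to 257 to 295 RPM in the wt and 390 to 1024 RPM in the dcat busulfan libraries. The 9 late spermatid markers, all listed, summed to 7297 and 9963 RPM in the wt and 18737 to 35036 in the dcat busulfan libraries, and the 4 of 7 listed round spermatid markers to 575 to 719 and 1350 to 2399. The 6 of 10 listed Sertoli markers summed to 23990 to 24496 in wt and 16484 to 22803 in dcat, and 3 of 8 macrophage markers to 954 to 1074 and 703 to 878. The 2 of 5 listed erythroid markers (Hba-a2 and Hbb-bs) summed to 771 to 924 in wt and 0 to 20.7 in dcat, with 1 of them at 0 in the dcat group. The part of these shifts in the Insl3 and Jak3 counts was not tested. Of 7 markers of T and natural killer cells, the cells best known for JAK3, 0 were listed among the transcripts, where a transcript was kept only if some group had 10 or more reads of it in each library.

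Few other genes of the same pathways were listed. Of 9 genes of the relaxin family, 2 were listed, Insl3 and Insl6, a testis-specific relative. Insl6 had no genotype difference that passed the test in either treatment, and it fell by 3.28 in wt and by 3.23 in dcat testes after busulfan (edgeR adjusted p = 2.63e-05 and 1.43e-04), opposite to Insl3. Of 25 genes of Leydig steroidogenesis and its regulators, 14 were listed. After busulfan 13 of them were called higher in wt and 14 in dcat testes (median log2 fold changes 3.17 and 2.59, against 0.09 and 0.14 over all transcripts). Scarb1, not called in wt, was also higher there (0.95). Between genotypes after busulfan 0 of these 14 passed the test, where 5.82% of all transcripts did. Their median was -0.23, with a range of -0.80 (Tspo) to 0.63 (Scarb1).

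Of 22 JAK-STAT genes, 4 were listed: Jak3, Jak1, its ubiquitous relative, Stat4, a signal transducer of lymphocytes, and Pias1, an inhibitor of STAT signalling. After busulfan Jak1 rose with Jak3 (3.69 in wt and 2.00 in dcat, edgeR adjusted p = 1.24e-04 and 0.00547), while Stat4 and Pias1 fell in both genotypes. None of the other 3 passed the genotype test after busulfan (Jak1 -0.13, Stat4 2.89, Pias1 -0.68). Of 27 genes of poly(A) tail enzymes and binding proteins, 7 were listed and 0 passed the genotype test in either treatment. Over all transcripts 5.82% passed after busulfan and 0% after vehicle. The log2 fold changes of the 7 after busulfan ran from 0.57 to 2.11, with a median of 1.58 against 0.20 over all transcripts. Tent5c, 1 of the 7, had a log2 fold change of 1.07 after busulfan (SE 0.41, edgeR adjusted p = 0.119).

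The tails of Insl3 formed 1 narrow, long population in wt testes after busulfan and a broad, short one in dcat testes. In wt busulfan libraries the mean tail was 181 and 187 nt, with an SD within the library of 38.0 and 37.8 nt. In dcat busulfan libraries the mean was 105 and 109.9 nt, with an SD of 50.7 and 51.3 nt. The vehicle libraries lay between the extremes, at 168 and 183 nt for wt and 148 and 143.5 nt for dcat. No dcat library overlapped a wt library of the same treatment in mean tail length.

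The quantiles showed where the distributions parted. From the 10th to the 90th percentile, tails spanned 139 to 226 and 147 to 232 nt in wt busulfan libraries, and 45.1 to 174 and 50.3 to 177 nt in dcat busulfan libraries. The 10th percentile in wt was therefore above the median in dcat (98.7 and 102 nt). In both multiplexed runs the loss was largest in the lower part of the distribution, with dcat minus wt differences of group means of -92.5 nt at the 5th percentile, -95.0 nt at the 10th, -93.4 nt at the 25th, -82.5 nt at the median, -65.1 nt at the 75th, -53.5 nt at the 90th and -47.1 nt at the 95th. The longest Insl3 tails in dcat busulfan libraries were still 290.4 and 309.7 nt, against 363 and 351 nt in wt.

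**Figure D3:**
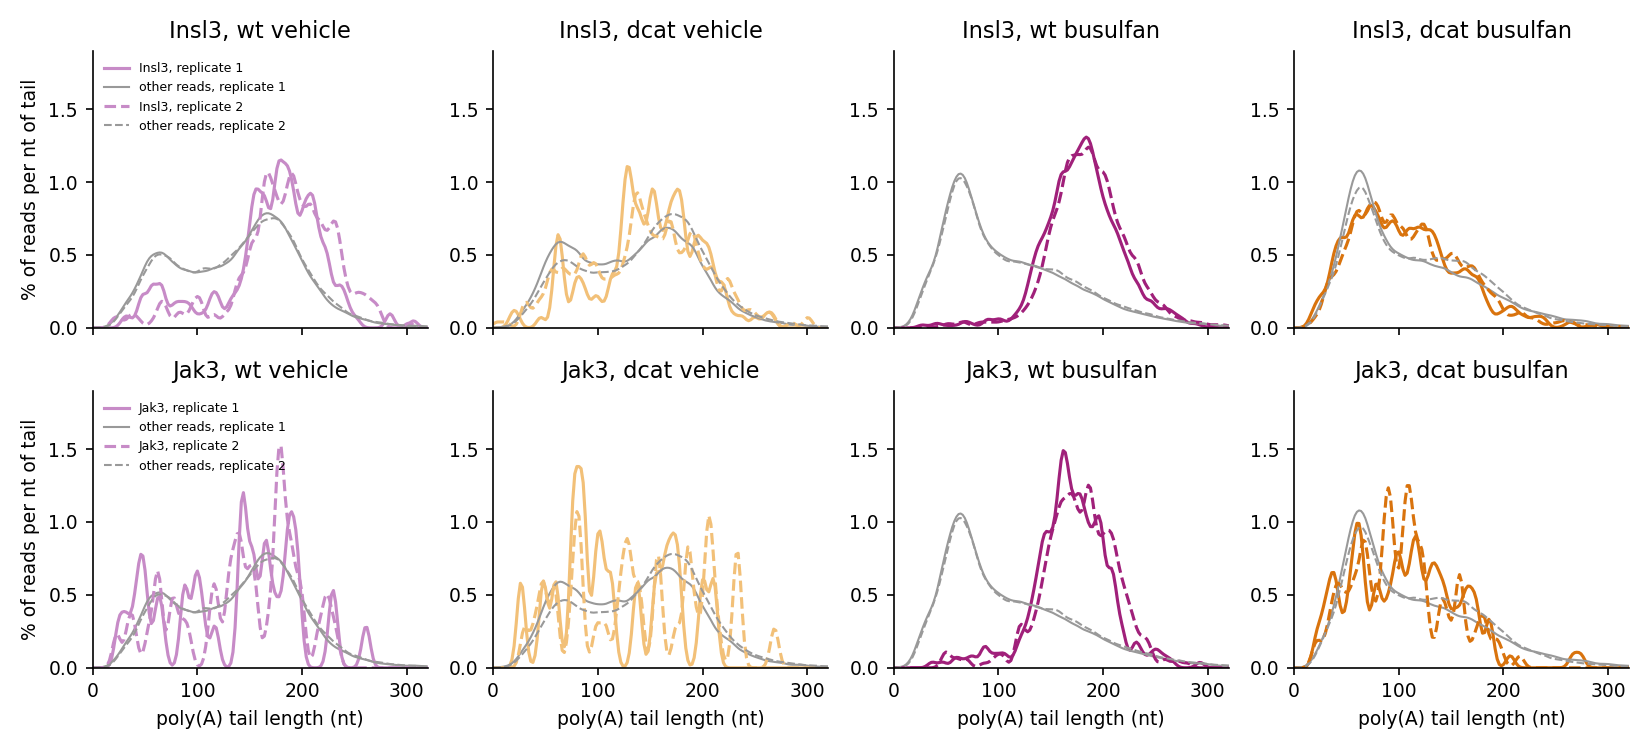
Poly(A) tail length distributions of Insl3 (top) and Jak3 (bottom) in the 4 groups, as the percent of reads per nt of tail length (Gaussian kernel, bandwidth 4 nt). Coloured lines are the gene, grey lines all other reads, and solid and dashed lines replicates 1 and 2. Insl3 has 1 maximum near 184 and 186 nt in wt busulfan and its highest point at 73 and 76 nt in dcat busulfan libraries, while the grey lines of the 2 busulfan groups are alike.

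In wt busulfan libraries the smoothed Insl3 distribution had a single maximum, at 184 and 186 nt. In dcat busulfan libraries the highest point lay at 73 and 76 nt and was followed by lower maxima at 94 and 93 nt and at 119 and 123 nt, which both libraries had within 8 nt of each other. The spacing of these 3 maxima was 21 and 25 nt in replicate 1 and 17 and 30 nt in replicate 2. Each library had 1 further, lower maximum, at a place the other did not share. The steps were shallow: with a bandwidth of 6 nt in place of 4 a single maximum at 73 and 75 nt was left, and with a required prominence of 10% in place of 5% only the one at 73 and 76 nt was shared. The highest point stayed between 72 and 76 nt at every setting tried, the histogram in bins of 5 nt included.

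In vehicle libraries Insl3 had 141 to 302 reads and the distributions were rougher, with 6 to 8 maxima each. The highest points were at 179 and 167 nt in wt vehicle and at 129 and 137 nt in dcat vehicle. Both wt vehicle libraries had a small separate maximum of short tails, at 64 and 66 nt. The wt busulfan libraries had no such maximum, although 72 and 126 of their Insl3 reads had tails of 30 to 120 nt. The other reads of the libraries had maxima at 64 to 68 nt and 166 to 173 nt after vehicle and a single maximum at 62 to 64 nt after busulfan. The Insl3 peak in wt busulfan testes was thus far from that of the other reads, and in dcat busulfan testes it lay near it. In dcat vehicle testes the highest point of Insl3 lay between the maxima of the other reads.

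All other reads together kept nearly the same tails in the 2 genotypes. After busulfan their mean was 109.6 and 112.5 nt for wt against 111 and 115 nt for dcat, and after vehicle 139 and 140.5 nt against 134 and 144 nt. Among the 231 transcripts with at least 50 reads in both wt busulfan libraries, Insl3 ranked 9 and Jak3 14 from the longest mean tail, and 19 and 18 from the narrowest spread. Among 191 such transcripts in dcat busulfan libraries they ranked 100 and 111, close to the middle. After vehicle Insl3 ranked 5 of 164 in wt and 26 of 65 in dcat.

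**Figure D4:**
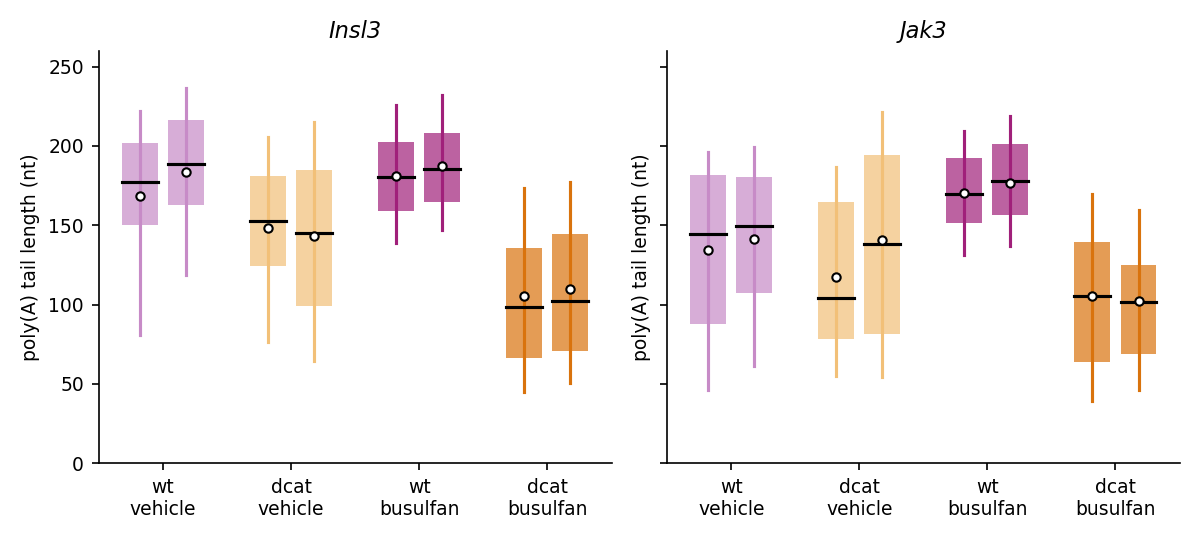
Tail length of Insl3 (left) and Jak3 (right) in each library, in nt, replicate 1 to the left of replicate 2. Boxes span the 25th to the 75th percentile, lines the 10th to the 90th, black bars are medians and white circles means. Medians of Insl3 are 180.5 and 186 nt in wt busulfan and 98.7 and 102 nt in dcat busulfan.

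The distance between 2 libraries was also taken as the largest gap between their cumulative tail distributions, which runs from 0 to 1 and is given as a description. For Insl3 it was 0.0445 to 0.136 between libraries of a group, 0.260 to 0.375 between genotypes after vehicle and 0.632 to 0.709 between genotypes after busulfan. Busulfan and vehicle libraries differed by 0.0736 to 0.147 in wt, about the range within groups, and by 0.320 to 0.431 in dcat testes.

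Whether these differences exceeded the spread between libraries was tested on the mean tail of each transcript with limma. The limma p-values lean on a spread shared across transcripts, since each group had 2 libraries. The SE can therefore be smaller than the SDs of a transcript's own libraries would give. After busulfan Insl3 tails were shorter in dcat by -76.3 nt (SE 2.12, limma adjusted p = 4.17e-14), from 184 ± 4.42 to 108 ± 3.13 nt (SD, n = 2), with -75.4 and -77.3 nt within the multiplexed runs. Jak3 tails were shorter by -69.8 nt (SE 4.45, adjusted p = 8.99e-09), from 174 ± 4.60 to 104 ± 2.53 nt, with -64.8 and -74.8 nt within the runs. The median over the 1188 transcripts tested was 2.85 nt and 1.35% of them were called, 1.01% with shorter tails in dcat. Insl3 and Jak3 ranked 2 and 4 from the most negative difference. Both calls held under all 12 and 11 alternatives tried, though the highest adjusted p among these was 0.0441 for each gene (limma). The block raised the number of transcripts called from 16 to 27.

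After vehicle the Insl3 difference was -29.9 nt (SE 5.42, limma adjusted p = 0.0119), from 176 ± 10.7 to 146 ± 3.42 nt (SD, n = 2), and Insl3 was the only 1 of 720 transcripts called (0.139%). The call was fragile, and was lost with the replicate block (-29.9 nt, adjusted p = 0.981), with median tails (-34.3 nt, 0.894), without the eBayes trend (0.991) and without wt vehicle replicate 2 (-22.3 nt, 0.999). Within the multiplexed runs the difference was -19.9 and -39.9 nt. Jak3, with 17 to 44 reads a library, differed by -8.96 nt (SE 11.4, adjusted p = 0.989), and by 2.76 nt without dcat vehicle replicate 1.

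Insl3 tails were shorter after busulfan than after vehicle in dcat but not in wt testes. In wt testes the 10th percentile was higher in both busulfan libraries than in both vehicle libraries. In such bulk samples a change of tails within cells and a change in the mix of cells cannot be told apart. The busulfan comparisons share their libraries with the genotype comparisons above. In wt testes the mean differed from vehicle by 8.18 nt (SE 3.97, limma adjusted p = 0.126), which did not pass. With the replicate block the same 8.18 nt had an adjusted p of 0.00243. Only 7 of 12 alternatives kept the direction and the side of the threshold. The lower end differed most: the 10th percentile went from 81.0 and 119 nt to 139 and 147 nt, while the median differed by 0.10 nt between group means. In dcat testes the mean fell by 38.3 nt (SE 3.14, adjusted p = 1.28e-04) and the median by 48.2 nt. Over all transcripts tested the median change with busulfan was -19.9 nt for wt (39.7% called, 39.1% shorter and 3 transcripts longer) and -17.2 nt for dcat (19.5% called, all shorter). When the library's median was subtracted from every tail mean, Insl3 was longer by 31.4 nt after busulfan in wt (adjusted p = 5.21e-04) and shorter by -15.5 nt in dcat (adjusted p = 0.0986, no longer passing).

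Jak3 tails were longer by 35.8 nt after busulfan than after vehicle in wt testes (SE 5.30, limma adjusted p = 4.96e-04). This was the largest of 527 changes and 1 of 3 called longer (0.569%). From 134 and 141 nt in wt vehicle they went to 170.4 and 177 nt in wt busulfan libraries. In dcat testes they changed by -25.0 nt (SE 10.7, adjusted p = 0.120), from 117 and 141 nt to 106 and 102 nt, which passed with the block (adjusted p = 0.0492) and without dcat vehicle replicate 1 (-36.7 nt, adjusted p = 0.0375). The change with busulfan in dcat minus that in wt was -46.5 nt for Insl3 (SE 6.20, adjusted p = 0.00979) and -60.8 nt for Jak3 (SE 11.1, adjusted p = 0.0422). These were the only 2 of 339 transcripts called lower (0.59%, and 0.885% in either direction). Without the eBayes trend neither passed (both adjusted p = 0.190), and the Jak3 call was lost without any 1 of 6 of the 8 libraries.

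The ends of the distributions were tested in the same way for the 512 transcripts with at least 20 reads in each busulfan library. The 10th percentile of Insl3 tails was lower in dcat by -95.0 nt (SE 2.79, limma adjusted p = 2.26e-06) and that of Jak3 by -91.2 nt (SE 3.41, adjusted p = 4.47e-06), the most and second most negative values, where 1.17% of transcripts were called lower and 1.37% in either direction (7 transcripts, and 18 with the replicate block). The 90th percentile was lower by -53.5 nt for Insl3 (SE 1.80, adjusted p = 1.14e-95) and -49.6 nt for Jak3 (SE 9.26, adjusted p = 1.56e-05), where 1.76% were called lower and 2.54% in either direction. These last p-values rest on the eBayes trend, and without it no 90th percentile passed (adjusted p = 0.287 for both genes).

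Changes in reads and in tails were joined by counting molecules of each tail class. Tails of 30 to 120 nt are called short here and tails of 120 to 210 nt long. Short-tailed Insl3 molecules made up 3.46% and 3.002% of Insl3 reads after busulfan in wt, against 61.2% and 59.6% in dcat, and long-tailed ones 77.1% and 73.2% against 32.2% and 34.6%. Tails of 210 nt or more were 19.3% and 23.7% of Insl3 reads in wt and 3.66% and 3.99% in dcat. For Jak3 the short shares were 6.69% and 5.11% in wt and 59.5% and 68.8% in dcat busulfan libraries.

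RPM values are shares of a library's reads, so molecules per cell were not measured. Counted against all reads, short-tailed Insl3 reads were more frequent in dcat after busulfan, besides being a larger share of Insl3 reads. They stood at 1090 and 1092 RPM in wt busulfan and at 9255 and 8190 in dcat busulfan libraries. Long-tailed molecules went from 24299 and 26623 to 4863 and 4757 RPM, and those of 210 nt or more from 6071 and 8620 to 553 and 548. Each of these pairs of groups was fully separated. On the log2 scale the short-tailed reads rose by 3.05 (SE 0.31, edgeR adjusted p = 1.78e-19). This was the smallest p of 2710 transcripts, of which 1.51% were called higher and 1.73% in either direction. The edgeR p-values of tail classes lean on a spread shared across transcripts, since each group had 2 libraries. The long-tailed reads fell by 2.35 (SE 0.58, adjusted p = 0.00568), where 0.577% of 2772 transcripts were called lower and 5.23% in either direction. Without either wt busulfan library this last call was lost (adjusted p = 0.0592 and 0.128).

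**Figure D5:**
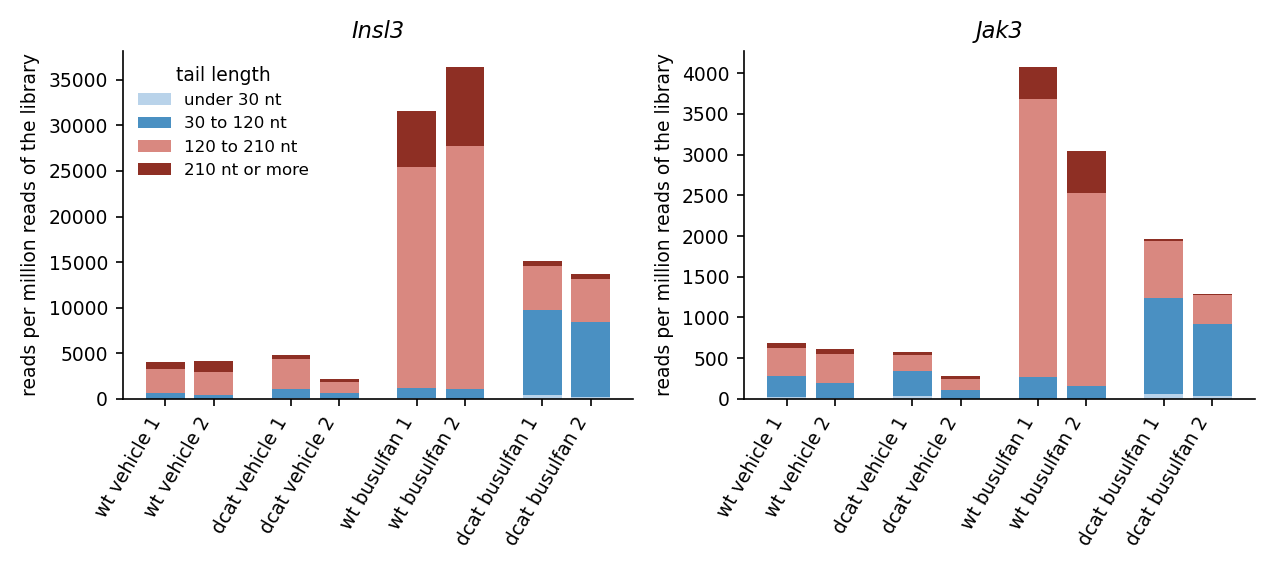
Reads per 1000000 reads (RPM) of each library assigned to Insl3 (left) and Jak3 (right), stacked by tail length class. The long classes dominate in wt busulfan libraries (24299 and 26623 RPM of Insl3 with tails of 120 to 210 nt), and the 30 to 120 nt class in dcat busulfan libraries (9255 and 8190).

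Reads listed as Jak3, some of which may be Insl3 molecules, shifted the same way in smaller numbers. Its short-tailed reads stood at 273 and 156 RPM after busulfan in wt, against 1171 and 889 RPM in dcat (a rise of 2.37 on the log2 scale, SE 0.39, edgeR adjusted p = 2.15e-07). Its long-tailed reads stood at 3406 and 2374 in wt and 699 and 362 in dcat (fell by 2.38, SE 0.50, adjusted p = 6.87e-04). With the classes split at 150 nt the Jak3 short-tailed rise was 0.81 and did not pass (adjusted p = 0.184). Without wt busulfan replicate 1 the long-tailed fall had an adjusted p of 0.0546.

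After vehicle the shares of short tails leaned the same way without passing a test. Short tails were 16.5% and 9.27% of Insl3 reads in wt vehicle and 20.6% and 31.0% in dcat vehicle libraries. Short-tailed Insl3 reads differed by 0.60 on the log2 scale (SE 0.35, edgeR adjusted p = 1.0; 0.0369% of transcripts called) and long-tailed reads by -0.26 (SE 0.58, adjusted p = 1.0), and the latter went to 0.32 without dcat vehicle replicate 2. The Jak3 values were -0.41 and -1.16 (adjusted p = 1.0 for both), from 6 to 26 reads a class and library, so that smaller differences were not detectable at this depth.

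The share of Jak3 in the reads of the pair ranged from 7.74% to 14.5% over the libraries. Of the reads of the pair, Jak3 took 14.5% and 12.7% after vehicle in wt, 10.8% and 11.8% after vehicle in dcat, 11.4% and 7.74% after busulfan in wt, and 11.5% and 8.60% after busulfan in dcat. The wt busulfan replicates differed beyond counting error, with Wilson 95% intervals of 10.2% to 12.8% and 6.997% to 8.551%. This share did not separate the genotypes, with a difference of -0.94 percentage points (exact permutation test over 8 libraries, two-sided p = 0.600), or the treatments (-2.62 points, exact permutation p = 0.114). Because 1 read is 1 molecule, reads were not divided by transcript length.

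The mean Jak3 tail was shorter than the mean Insl3 tail in 7 of 8 libraries. The difference of means was -34.0 and -42.0 nt (wt vehicle), -31.2 and -2.93 nt (dcat vehicle), -10.5 and -10.2 nt (wt busulfan), and 0.207 and -7.80 nt (dcat busulfan). The mean over 8 libraries was -17.3 nt (SD 16.0), with an exact sign-flip permutation p of 0.0156, where the smallest possible is 0.00781. Adjusted over the 4 exact permutation tests made on this pair it was 0.0625 and did not pass. The gap was 20.5 nt smaller after busulfan than after vehicle, which was not beyond the spread (exact permutation p = 0.114). The gaps between the cumulative distributions of the pair ran from 0.0649 in dcat busulfan replicate 1 to 0.397 in dcat vehicle replicate 1.

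The transcripts most like Insl3 were sought over all 8 libraries, and the likeness is a description. In log2 CPM, among 2036 other transcripts with at least 80 reads, high Pearson correlations were those of Pkm (a glycolytic enzyme, 0.997), Vcam1 (a cell adhesion molecule, 0.992), Cst3 (a secreted protease inhibitor, 0.989) and Fabp5 (a fatty acid-binding protein, 0.988). Jak3 was seventh, with 0.982. The 8 libraries fall into 2 treatments with a large difference, which such correlations mostly follow.

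In mean tail length, among 338 other transcripts with at least 10 reads in each library, the closest by root mean square difference was Ptgds (10.1 nt), which encodes a prostaglandin D2 synthase. Odf1 (21.8 nt), a sperm tail protein, Jak3 (22.8 nt), Tppp2 (23.9 nt), a tubulin-binding protein of the sperm tail, and Tax1bp1 (25.8 nt), an autophagy receptor, followed. After busulfan Ptgds tails were 190 and 189 nt long for wt against 117 and 127 nt for dcat, and after vehicle 156 and 178 nt against 142 and 134 nt. The order of the groups was that of Insl3. Ptgds was chosen by these same tail values, so this match is not a separate result. Over all transcripts tested for tails between genotypes after busulfan, 1.01% were called shorter in dcat and 1.35% in either direction. Of the 11 genes of Leydig steroidogenesis whose tails could be compared there, 0 were called shorter, which is near that share, and 1 was called longer. The latter was Aldh1a1, a retinaldehyde dehydrogenase (22.6 nt, limma adjusted p = 0.0363). Differences over the 11 ranged from -7.87 to 24.57 nt, with a median of 9.30 nt against 2.85 nt over all transcripts tested.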

How the data were processed

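Poly(A) RNA of 8 testes was sequenced by the authors in 2 multiplexed runs of 4 barcoded extracts (kit SQK-RNA002). Per the methods of the study, Guppy called the bases, Minimap2 aligned the reads to the GENCODE transcriptome (GRCm38), Deeplexicon sorted the barcodes and Nanopolish estimated the tails. Reads that passed its quality check were kept, and so were transcripts that reached 10 reads in each library of some group, which held for all 2783. The deposited matrix holds raw read counts per transcript, and the deposited tail table holds 1 length in nt for each of 621202 reads, whose number equals the count for every transcript and library. Deposited DESeq2 tables of the authors' own comparisons (log2 fold changes, p-values) were not used.

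Counts of all 2783 transcripts were compared by edgeR 4.0.16 quasi-likelihood tests (TMM, 8 libraries as 4 groups), and so were counts of tail classes, with the library sizes of all reads. Mean tails (at least 10 reads in each library of a contrast) and percentiles (at least 20) were compared by limma 3.58.1 with eBayes and a trend on log2 mean reads. All tests were two-sided with Benjamini-Hochberg adjustment over the transcripts tested and a threshold of 0.05. Alternatives were DESeq2 1.42.0, RLE scaling, a low-count filter, other tail summaries, class limits and bandwidths, the run as a block, and leaving out single libraries. CPM values are TMM-scaled, and RPM values are not. Library sizes, RPM values and shares of all reads count only reads of the transcripts kept. Steps were tested on simulated data.

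The protocol in the labels states that replicate numbers mark the multiplexed runs, which pairs the samples. Deviations of same-numbered libraries correlated at -0.126 to 0.223 in log2 CPM and at 0.006 to 0.062 in tails. Each library is 1 mouse. The genes, gene lists and tests were chosen with earlier results of these data known. Named genes were the pair, members of the lists, and the 5 transcripts most like Insl3 in counts and in tails, so that Ptgds was named by that rule. Of the 5 most alike in counts, 1 is not reported here. Of the 2783 transcripts 2738 were found in GENCODE vM21. The tail table lists 176 read names more than once, 1 of them for an Insl3 read, and they were kept. Wilson 95% intervals cover counting error only.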

Additional observations from a re-analysis of the deposited data

Results flagged for a closer look

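The change in mean tail length with busulfan, tested with limma as dcat minus wt, differed between the genotypes for both genes. For Insl3 the difference of the changes was -46.5 nt (adjusted p = 0.00979, and 0.190 without the eBayes trend), since group means went from 146 to 108 nt in dcat and from 176 to 184 nt in wt testes. For Jak3 it was -60.8 nt (adjusted p = 0.0422, and 0.190 without the trend). Because the transcripts share their last exon, these are not independent results.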

How the results depend on the processing

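Of 520 recomputed values, 398 kept their direction and their side of the threshold, or for counts and levels stayed near the value reported. Shorter Insl3 and Jak3 tails in dcat after busulfan, the lower 10th percentiles, more short-tailed Insl3 reads, and the higher reads of both genes after busulfan in each genotype held under every alternative tried. Groups had 2 libraries, and vehicle libraries held 17 to 44 Jak3 reads, which limits the Jak3 comparisons after vehicle. The cause of the changes below was not tested.

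With the multiplexed run as a replicate block, adjusted p was 0.0311 for Jak3 reads after busulfan (-1.08), 0.981 for Insl3 tails after vehicle (-29.9 nt), 0.00243 for Insl3 tails with busulfan in wt (8.18 nt) and 0.0492 for Jak3 tails with busulfan in dcat (-25.0 nt). Calls under the block were 27 for tails and 18 for 10th percentiles between genotypes after busulfan, 0 for tails after vehicle, 136 for tails with busulfan in dcat and 123 for the interaction in reads. The block changed no other call on the pair. Without the eBayes trend, Insl3 and Jak3 did not pass for the 90th percentile (-53.5 and -49.6 nt, 0.287 each) or the tail interaction (-46.5 and -60.8 nt, 0.190 each), nor Insl3 tails after vehicle (-29.9 nt, 0.991). Calls were then 0 for the 90th percentile, 7 for tails between genotypes after busulfan, 0 after vehicle, 50 with busulfan in dcat and 0 for the interaction.

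With median tails Insl3 after vehicle (-34.3 nt, 0.894) and the Jak3 interaction (-44.7 nt, 0.606) did not pass, and calls were 29, 0 and 1 (genotype after busulfan, after vehicle, interaction). With log2 tails Insl3 after vehicle was -0.31 (0.567), and calls were 34, 0 and 5. With centred libraries the busulfan change of Insl3 tails was 31.4 nt for wt (5.21e-04) and -15.5 nt for dcat (0.0986), and calls were 25 between genotypes after busulfan, 88 with busulfan in wt and 8 for the interaction. With at least 20 reads calls were 9, 121 (busulfan in wt) and 48 (busulfan in dcat), and with at least 50 reads 7 for the 90th percentile. Pooling the reads of both genes gave 12.3 nt with busulfan in wt (0.0280) and 1 interaction call.

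Jak3 reads after busulfan passed with RLE scaling (-1.21, 0.0220), filterByExpr (-1.22, 0.0238) and only the 4 libraries compared (-1.22, 1.14e-05). DESeq2 called 47 transcripts between genotypes after busulfan, against 162, and 1095 with busulfan in dcat, against 1746 (35.7% of them higher, against 49.9%). The 4 vehicle libraries alone gave 1 call. Interaction calls in reads were 68 with RLE and 36 with filterByExpr. Classes split at 150 nt gave 0.81 (0.184) for short-tailed Jak3 reads, 98 short-tailed and 42 long-tailed calls. Split at 100 nt, short-tailed calls were 31 after busulfan and 0 after vehicle. The dcat minus wt difference in the share of short tails was 45.1 points (100 nt) and 62.3 points (150 nt) for Insl3 after busulfan, 28.96 points (150 nt) after vehicle and 41.5 points (100 nt) for Jak3 after busulfan. The highest point of the Insl3 distribution moved to 186.0 nt in wt vehicle and 183.5 nt in wt busulfan with a bandwidth of 6 nt, and to 145 nt in dcat vehicle and 187.5 nt in wt busulfan with 5-nt bins. Maxima in both libraries were 4 (bandwidth 3 nt), 2 (6 nt) and 2 (prominence 2%) in wt vehicle, 0 (6 nt) in dcat vehicle, and 1 (6 nt), 5 (2%) and 1 (10%) in dcat busulfan.

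Leaving out single libraries gave these ranges. Between genotypes after busulfan, reads were -1.43 to -0.89 for Insl3 and -1.33 to -0.81 for Jak3 (7 to 360 calls), long-tailed reads -2.56 to -2.10 and -2.85 to -1.996 (2 to 268 calls), with 17 to 60 short-tailed and 7 to 19 90th percentile calls. After vehicle, Insl3 reads were -0.81 to 0.20, Insl3 tails -37.4 to -22.3 nt (0 to 9 calls), Jak3 tails -20.7 to 2.76 nt, short-tailed Jak3 reads -0.94 to 0.47 (0 to 1 calls) and long-tailed Insl3 reads -1.09 to 0.32. Changes of direction came without dcat vehicle replicate 2 (Insl3 reads 0.20, long-tailed Insl3 0.32, short-tailed Jak3 0.47), without dcat vehicle replicate 1 (Jak3 tails 2.76 nt) and without wt vehicle replicate 1 (Jak3 share 0.0310 points). The busulfan change was 0.619 to 15.7 nt for Insl3 tails of wt (123 to 172 calls) and -36.7 to -13.3 nt for Jak3 tails of dcat (31 to 97 calls), with 712 to 1795 calls for reads in dcat. The interaction was -1.50 to -0.49 for Insl3 reads (3 to 257 calls) and -72.5 to -49.1 nt for Jak3 tails (1 to 3 calls), and the Jak3 share differed by -2.23 to 0.0310 points.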
